A study of Mus musculus with 6 samples.

Results

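Nonsense-mediated decay (NMD) is the surveillance route that removes mRNAs with a premature stop codon, and 7 of its core factors were examined in day 4 embryoid bodies (D4 EBs) of 2 *Evx1*-edited mouse ES cell lines. They were the kinase *Smg1*, the helicase *Upf1*, its partners *Upf2*, *Upf3a* and *Upf3b*, and the effectors *Smg5* and *Smg6*, chosen by gene symbol from the 15266 genes listed. All 7 were listed, and all 7 were among the 12891 genes that passed the low-count filter. The set was assembled around *Smg1*, which was picked because it differed between the lines when libraries with the same replicate number were paired. The *Smg1* values of that comparison, output of the fits included, are therefore a description, and nothing is supported with them.

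Both lines derive from W9.5 mouse ES cells edited with CRISPR-Cas9. EVX1-Δfs (clone 14) carries small frameshift deletions in both alleles of *Evx1*, a homeobox gene of the posterior primitive streak. Del#3 (Evx1/Evx1asΔ2.6kb) lacks a 2.6 kb stretch that holds the promoter shared by *Evx1* and the antisense RNA *Evx1as*. EVX1-Δfs is a single clone, in which clone and edit cannot be told apart, and the labels name no clone for Del#3. Unedited EBs were not analysed here. Both were grown in serum without LIF for 4 days, and mRNA was sequenced from 3 EB differentiations per line. The study set up compared samples side by side and each replicate on a separate day, and the replicate number in the labels was taken as that day. The labels do not state this link, and libraries of the same number deviated together from their line means clearly in replicate 1 only (correlation across genes 0.74, against 0.32 and -0.05 in replicates 2 and 3), so the pairing is least certain for replicate 3.

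In NMD, UPF1 is held at a ribosome that has stopped too early, and UPF2 and UPF3 link it to an exon junction complex left downstream by splicing. SMG1, a kinase of the PIKK family, then phosphorylates UPF1. Phosphorylated UPF1 recruits SMG6, which cuts the mRNA, and SMG5, which leads it to deadenylation and decapping. Several NMD factor mRNAs are known to be NMD substrates themselves, and UPF3A, the paralogue of UPF3B, can act weakly in NMD or against it.

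The guide used for EVX1-Δfs is shown because it makes one of the lines express a frameshifted mRNA. It is written 5′ to 3′ with the PAM next to it in the genome in capitals.
EVX1-Δfs guide: ccagatgcgccgataccgcaCGG
The 20 matching bases lie at chr6:52265847-52265866 on the plus strand of NCBIM37 (mm9), in exon 2 of the 3 exons of *Evx1* (chr6:52265732-52265988). The predicted cut follows base 52265863, 125 bases before the junction with exon 3. A stop codon more than about 50 bases before the last junction is the usual mark of an NMD substrate, but the position of the new stop codon and the fate of the edited mRNA were not measured here. The paper predicts that both alleles gain a premature stop codon no more than 20 bases from the deletion. It also states that *Evx1* mRNA in EVX1-Δfs was at the level of unedited EBs in serum. Reads on *Evx1* were plentiful in EVX1-Δfs, at 2655, 3671 and 3051 normalized counts in replicates 1 to 3, and were at 38.3, 32.5 and 33.1 in Del#3. The loss of *Evx1* mRNA in Del#3 was thus visible in every library, while the EVX1-Δfs edit cannot be read from a gene count alone.

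The libraries held 9024579 to 15699124 reads on listed genes. A normalized count is the number of reads on a gene divided by the size factor of its library. Streak and epiblast markers were present in every library. The summed level of 7 primitive streak and mesoderm markers was 7841 to 9839 in EVX1-Δfs and 6653 to 9891 in Del#3, and that of 5 pluripotency and epiblast markers was 17602 to 25610 and 16030 to 26526. Sums for 4 endoderm, 3 blood and 3 neural markers also overlapped between the lines, as did those for 3 yolk sac endoderm and 2 of 3 trophoblast markers, and no marker that was listed was at 0. The yolk sac endoderm sum reached further up in Del#3, at 47.0 to 178.5 against 48.4 to 68.0 in EVX1-Δfs. In EBs, fewer cells of a type and less RNA per cell cannot be told apart. Libraries differed in genes of low GC content: over the 489 tested genes with exons under 40% GC, the median deviation from the gene's own mean on the log2 scale was -0.91 in EVX1-Δfs replicate 2 and 0.66 in Del#3 replicate 1. For *Smg1*, *Upf2*, *Upf3b* and *Upf1*, whose differences moved most, values without single libraries are given beside their results.

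*Smg1* was about 2-fold higher in Del#3 than in EVX1-Δfs in each of the 3 same-numbered pairs. It is transcribed from chr7:125274832-125387151 on the minus strand of mm9, with 15547 bases of exon. EVX1-Δfs replicates 1 to 3 had 688, 217 and 391 normalized counts of *Smg1*, and Del#3 replicates 1 to 3 had 1471, 463 and 757. The lines overlapped as groups, since EVX1-Δfs replicate 1 lay above Del#3 replicate 2, but in each pair the Del#3 library was the higher one. The ratios of Del#3 to EVX1-Δfs in pairs 1 to 3 were 2.14, 2.14 and 1.94. On the scale of log2(normalized count + 1), the pair differences were 1.10, 1.09 and 0.95, with a mean of 1.05 and a SD of 0.082 (n = 3).

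The spread of *Smg1* within a line was larger than the difference between the lines. The highest library had 3.17 times the level of the lowest in EVX1-Δfs and 3.18 times in Del#3, and in both lines replicate 1 was highest and replicate 2 lowest. The line means were 432 ± 238 and 897 ± 518 normalized counts (SD, n = 3 each). Reads were not scarce, at 1042, 185 and 331 in EVX1-Δfs and 1846, 399 and 709 in Del#3. The mean log2 difference was 0.63 without EVX1-Δfs replicate 2 and 0.61 without Del#3 replicate 1.

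*Smg1* was chosen for a difference between same-numbered libraries, and among the fits here DESeq2 with the replicate number as a block called it. This fit gave *Smg1* a log2 fold change of 1.05 (standard error 0.22, adjusted p = 0.00696), the fourth smallest p among the 15 of 9642 genes called, or 0.156%. *Peg3* and *Prr14l* lay just inside the threshold at an adjusted p of 0.0489, and *Ash1l* and *Pds5a* just outside it at 0.0516. The same block in limma and edgeR left *Smg1* at an adjusted p of 0.59 and 0.55. Without the block, limma called 2 of 12891 genes, or 0.0155%, and none of the 7 factors. An unadjusted p under 0.05 was found for 1 of them, *Upf2*, and for 133 (1.03%) of all tested genes. In limma with the block it was found for 3 of the 7 and for 596 (4.62%) of all tested genes. As the set was assembled around *Smg1* with the paired comparison known, this is a description. DESeq2's Wald test with no block called 3 genes in all and none of the 7 factors. Among all tested genes, 16 (0.124%) had differences at least as large as the smallest *Smg1* pair difference in all 3 pairs.

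**Figure D1:**
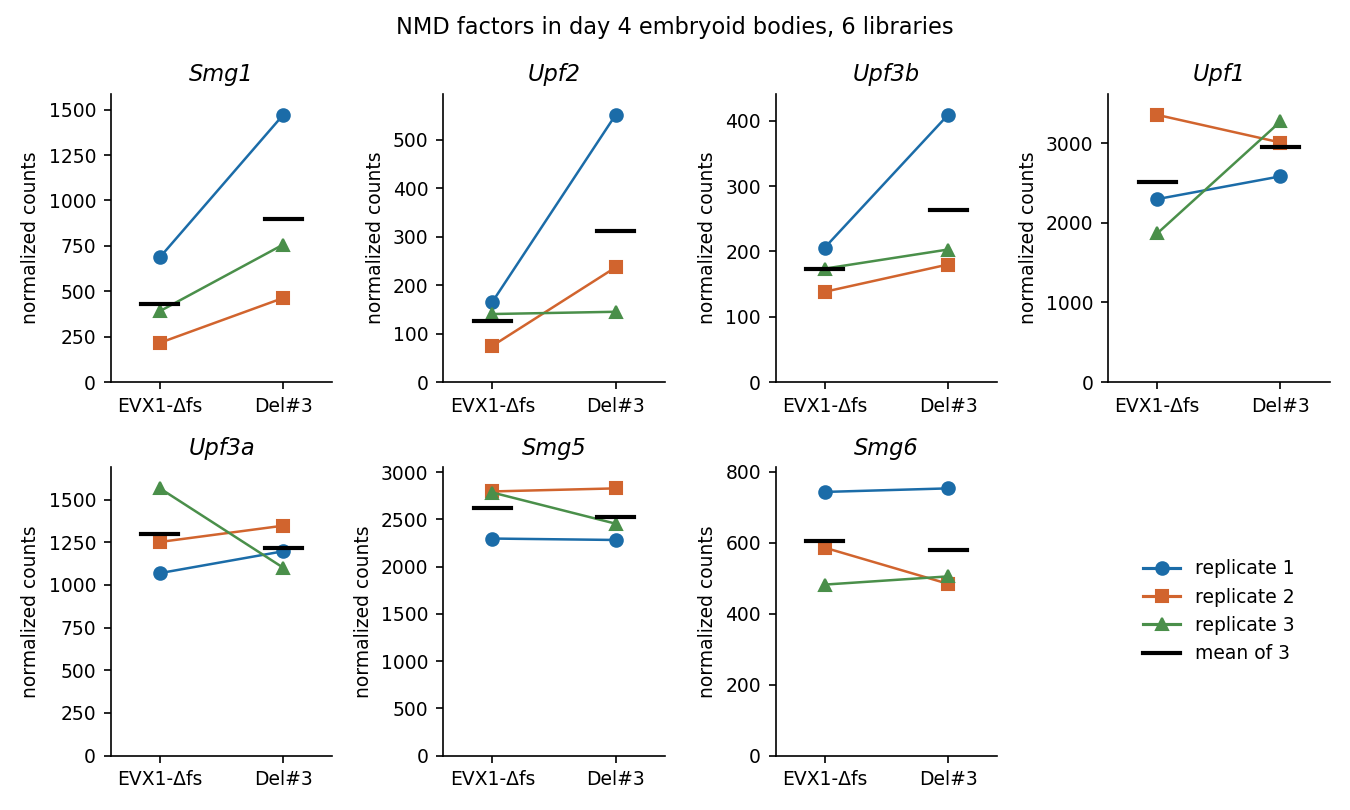
Normalized counts (vertical axis, from 0) of the 7 NMD factors in the 3 EVX1-Δfs and 3 Del#3 libraries, with lines joining libraries of the same replicate number and bars at the mean of each line. *Smg1* rises from EVX1-Δfs to Del#3 in all 3 pairs, from 688, 217 and 391 to 1471, 463 and 757, while *Smg5* and *Smg6* stay near level.

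*Upf2* and *Upf3b*, whose products tie UPF1 to the exon junction complex, were also higher in Del#3 in all 3 pairs, but unevenly so. *Upf2* (chr2:5872515-5977749, plus strand, 5474 bases of exon) had 166, 75.01 and 141 normalized counts in EVX1-Δfs and 552, 237 and 145 in Del#3. Del#3 was 3.33 and 3.16 times as high in pairs 1 and 2 and 1.03 times in pair 3, so the difference rested on the first 2 pairs. Its mean log2 difference was 1.14, with a 95% interval of 0.080 to 2.20 without the block and 0.38 to 1.90 with it (limma). The adjusted p was 1.00 and 0.79 in these fits and 0.18 in DESeq2 with the block, and a two-sided exact permutation test of the libraries without pairing gave p = 0.2, where 0.1 is the smallest possible. Without Del#3 replicate 1 the log2 difference of *Upf2* was 0.62, and without EVX1-Δfs replicate 2 it was 0.80.

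*Upf3b* (chrX:34631673-34650335, minus strand, 4017 bases of exon) had 206, 138 and 174 normalized counts in EVX1-Δfs and 409, 180.0 and 203 in Del#3. The Del#3 library of replicate 1 stood apart, and the other 5 libraries lay between 138 and 206. The pair ratios were 1.99, 1.30 and 1.17, and the mean log2 difference was 0.53 (95% interval -0.25 to 1.31 without the block and 0.022 to 1.04 with it, limma, adjusted p = 1.00 and 0.99). It was 0.16 without Del#3 replicate 1 and 0.38 without EVX1-Δfs replicate 2. The exact permutation test gave p = 0.3.

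*Upf1*, the ATP-dependent RNA helicase at the centre of the pathway, did not move in one direction. On chr8:72855421-72877172 (minus strand, 4616 bases of exon), it had 2297, 3354 and 1867 normalized counts in EVX1-Δfs and 2583, 3007 and 3271 in Del#3. Its pair differences on the log2 scale were 0.17, -0.16 and 0.81, and the mean was 0.27 (95% interval -0.30 to 0.85, limma without the block). It was 0.083 without EVX1-Δfs replicate 3 and 0.51 without EVX1-Δfs replicate 2. The exact permutation test gave p = 0.5.

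*Upf3a* (chr8:13785615-13798538, plus strand, 1402 bases of exon) had 1069, 1252 and 1565 normalized counts in EVX1-Δfs and 1197, 1347 and 1101 in Del#3. Its paralogue *Upf3b* was higher in Del#3 in every pair, whereas *Upf3a* was slightly higher in pairs 1 and 2, by 0.16 and 0.11 on the log2 scale, and lower by 0.51 in pair 3. The mean difference of *Upf3a* was -0.08 (95% interval -0.60 to 0.44, limma, exact permutation p = 0.7). The difference between the paralogues was not tested.

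*Smg5* and *Smg6*, which act on phosphorylated UPF1, had mean differences near 0. *Smg5* (chr3:88140182-88166259, plus strand, 4447 bases of exon) had 2297, 2795 and 2784 normalized counts in EVX1-Δfs and 2282, 2827 and 2454 in Del#3. The line means of *Smg5* were 2625 ± 284 and 2521 ± 279 (SD, n = 3 each), and the log2 difference was -0.06 (95% interval -0.54 to 0.42, limma, exact permutation p = 0.9). *Smg6* (chr11:74739325-74977950, plus strand, 8453 bases of exon), the endonuclease, had 743, 586 and 482 normalized counts in EVX1-Δfs and 753, 484 and 505 in Del#3. Its log2 difference was -0.06 (95% interval -0.67 to 0.54, exact permutation p = 1). For both genes the intervals still include changes of about 0.4 on the log2 scale in either direction, so equality of the lines was not shown.

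Of the 7 factors, 3 (*Smg1*, *Upf2* and *Upf3b*) were higher in Del#3 in all 3 pairs and 0 were lower in all 3. Over all tested genes, 1557 of 12891, or 12.1%, were higher in all 3 pairs, and 1417 were lower. The median log2 difference was 0.27 over the 7 factors, or 0.15 after the length and GC correction, and 0.0022 over all tested genes. Since the factors were assembled with this comparison known, nothing is read from these counts.

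**Figure D2:**
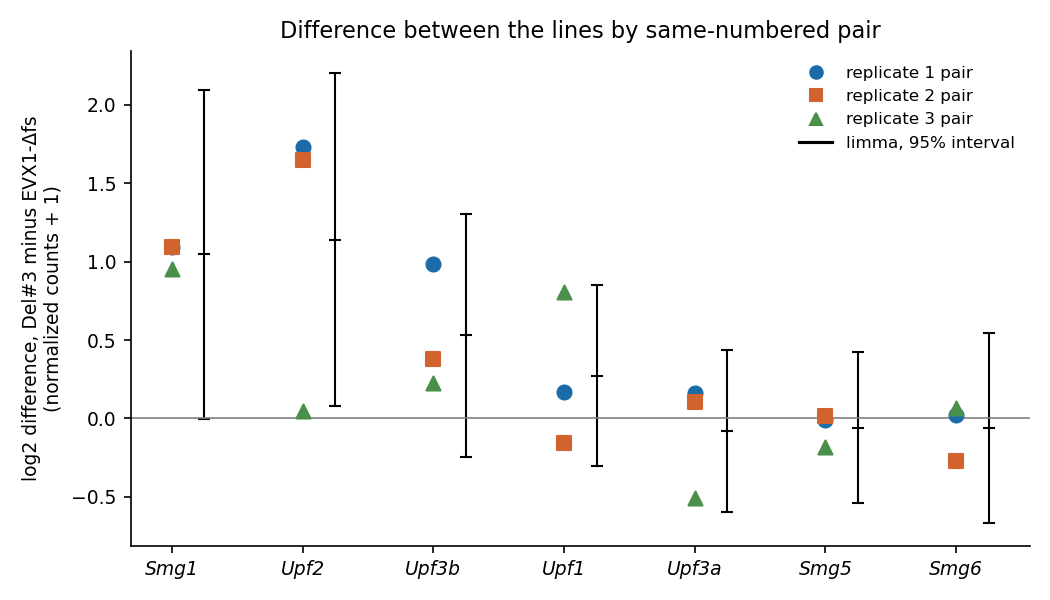
Log2 difference between Del#3 and EVX1-Δfs (vertical axis, normalized counts + 1) for each NMD factor, with 1 symbol per same-numbered pair and the mean and 95% interval from limma without the block beside them. The 3 *Smg1* symbols lie together at 0.95 to 1.10, the *Upf2* symbols spread from 0.05 to 1.73, and all intervals span 0 (that of *Smg1* from -0.0024 to 2.10) except that of *Upf2*.

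The days were compared as well, a contrast added after the data were seen. The mean of the highest day of *Smg1* lay 1.66 above that of its lowest on the log2 scale. The limma F test among the replicate numbers, with the line in the model, shares its residual spread with the paired comparison on which *Smg1* was chosen, so its adjusted p for *Smg1*, 0.0238, is a description and no independent test. Of the 12891 genes tested, 546, or 4.24%, passed the same threshold. After a correction of each library for exon length and GC content, the adjusted p of *Smg1* was 0.13.

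None of the other 6 NMD factors passed the test among days in limma. *Upf3b* and *Upf2* had adjusted p-values of 0.142 and 0.151 and ranges of 0.88 and 1.17 on the log2 scale, and *Smg6* had 0.170 and 0.60. Replicate 1 was the highest library of its line in both lines for *Smg1*, *Upf2*, *Upf3b* and *Smg6*. *Upf1*, *Smg5* and *Upf3a* had adjusted p-values of 0.471, 0.526 and 0.723 (limma), with ranges of 0.38, 0.30 and 0.21. For *Smg1*, the range among days was thus 1.66 and the mean difference between lines 1.05, both on the log2 scale.

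Per length of exon, the factors fell into a high and a low set. Levels between genes are given as RPKM, reads scaled to the exon length of the gene and to all reads on listed genes. *Upf3a* had the highest level, with a mean of 84.1 over the 6 libraries (73.6 to 99.0), and did not overlap *Upf1*, at 55.9 (35.9 to 68.7). *Upf1* and *Smg5*, at 54.4 (49.8 to 59.4), overlapped, and *Upf1* was the higher one in 4 of 6 libraries. A gap followed, since every *Smg6* library, at 6.67 (5.06 to 9.14), lay below every *Smg5* library. *Upf3b* had 5.21 (3.26 to 10.4), *Smg1* had 4.14 (1.32 to 9.71) and *Upf2* had 3.87 (1.30 to 10.3), and the ranges of these 4 low genes overlapped from each to the next. *Smg1* exceeded *Upf2* in 3 of 6 libraries. These levels use the whole exon length of the annotated gene, so isoform use would shift them.

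**Figure D3:**
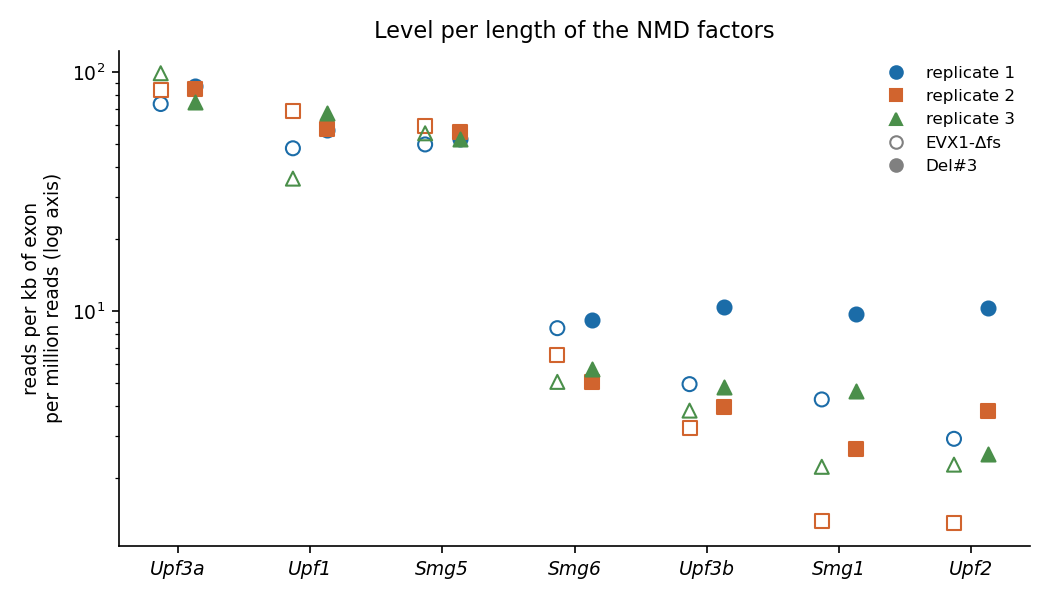
RPKM (vertical log axis) for the 7 NMD factors in order of their mean, with open symbols for EVX1-Δfs, filled symbols for Del#3 and shapes for replicate numbers. *Upf3a*, *Upf1* and *Smg5* lie between 35.9 and 99.0 and the other 4 factors between 1.30 and 10.4.

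The 3 factors with the same sign in every pair shared a pattern over the 6 libraries. Pearson's r with *Smg1* on the log2 scale was 0.93 for *Upf3b* and 0.86 for *Upf2*, and r between *Upf2* and *Upf3b* was 0.92. Many other genes were as close: *Upf3b* ranked 204th and *Upf2* 681st among the 12890 other tested genes. *Smg6* had an r of 0.52, *Upf1* -0.15, *Upf3a* -0.46 and *Smg5* -0.84. The 6 points share lines, days and library composition, and these correlations are descriptions.

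The 5 genes most like *Smg1* over the 6 libraries were *Senp6* (r = 0.996), which encodes a SUMO protease, the kinase gene *Braf* (0.996), *Haus6* of the augmin complex (0.991), *Mterf* (0.991) and *Dennd4c* (0.989). Each was higher in Del#3 in all 3 pairs, which the choice by likeness to *Smg1* largely fixes. *Senp6* had 727, 326 and 510.4 normalized counts in EVX1-Δfs and 1122, 535 and 788 in Del#3, with pair differences of 0.62, 0.71 and 0.63 on the log2 scale. Its pattern had the shape of *Smg1* with a smaller step between the lines. *Dennd4c* had log2 pair differences of 0.97, 0.91 and 0.91. The GC content of the exons of these 5 genes was 45.4%, 40.1%, 41.1%, 41.3% and 44.4%.

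The 3 factors also shared a low GC content. Exon GC was 42.7% in *Upf3b*, 43.7% in *Upf2* and 44.9% in *Smg1*, against 50.4% in *Smg6*, 56.5% in *Smg5*, 57.4% in *Upf3a* and 57.9% in *Upf1*. Of the 12130 tested genes with a matched gene model, 12.3%, 16.3% and 21.7% had a lower GC content than the first 3. Tested genes under 40% GC had median log2 differences of 0.39, 0.83 and -0.09 in pairs 1 to 3, so a difference between the lines at low GC was seen in pairs 1 and 2 and not in pair 3. In the bands where the 3 factors lie the medians of the pair differences were small, at 0.019, 0.050 and 0.098 for the 926 genes of 42 to 44% GC and -0.08, -0.12 and -0.0046 for the 1169 genes of 44 to 46%. Single libraries still deviated there. Over the 2095 genes of 42 to 46% GC, the median deviation from the gene's own mean was 0.22, -0.22 and 0.079 in EVX1-Δfs replicates 1 to 3. In Del#3 it was 0.23, -0.33 and 0.11. The part of these deviations in the pattern shared by the 3 factors was not tested.

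*Smg1* stood out by length as well. Only 0.767% of the tested genes had more exon sequence, and the 118 genes of over 15 kb had median log2 differences of 0.30, -0.17 and 0.47 in pairs 1 to 3. Being chosen for its differences, *Smg1* is not compared with these medians. When each library was corrected for exon length and GC content, the log2 difference of *Smg1* was 0.83 (standard error 0.23) in DESeq2 with the block, and its adjusted p rose to 0.13. The corrected difference of *Upf2* was 1.15 (adjusted p = 0.29) and that of *Upf3b* was 0.52 (adjusted p = 1.00). In the same fit, the corrected differences of *Upf1*, *Upf3a*, *Smg5* and *Smg6* were 0.15, -0.03, -0.15 and -0.08. Without the correction they were 0.27, -0.08, -0.06 and -0.06. The part of library composition in these differences was not tested beyond this correction.

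**Figure D4:**
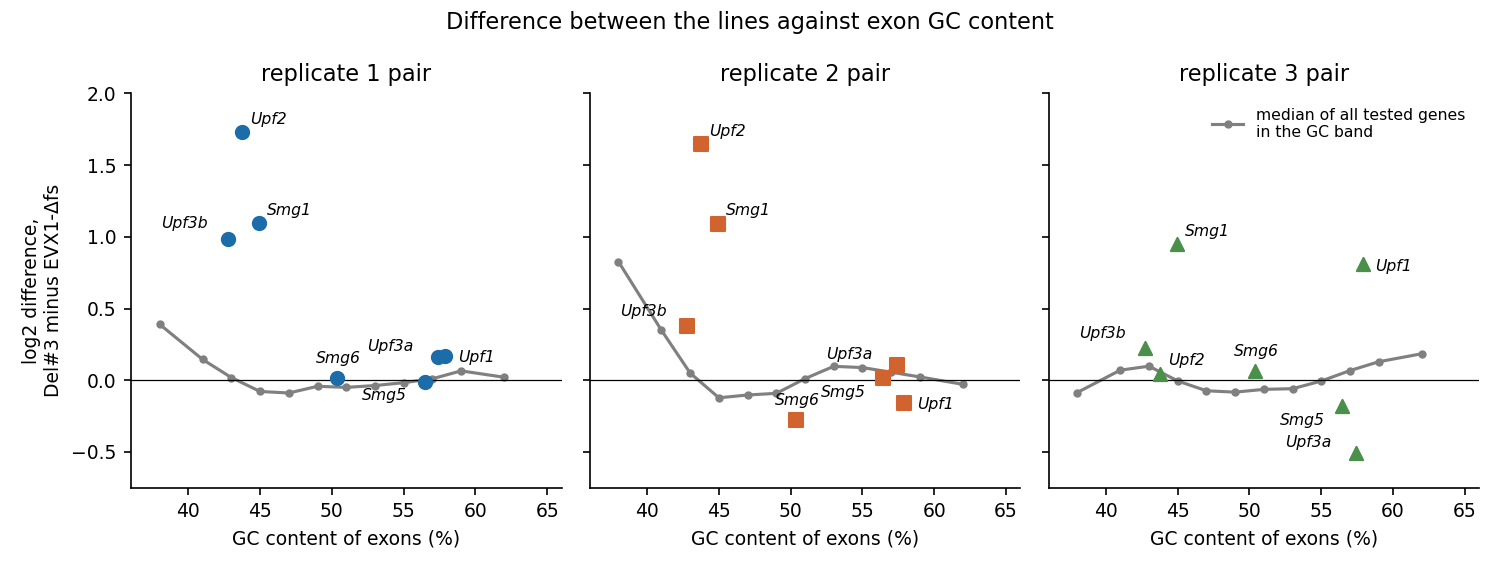
Log2 difference between Del#3 and EVX1-Δfs (vertical axis) against the GC content of exons (horizontal axis, %) in the 3 same-numbered pairs, with a symbol for each NMD factor and a line through the median of all tested genes in bands of GC content. The line reaches 0.39 and 0.83 in the band under 40% GC in pairs 1 and 2, and between 42 and 46% GC, where *Smg1*, *Upf2* and *Upf3b* lie, it stays between -0.12 and 0.098 in all 3 pairs.

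The annotated mRNAs were read for features linked to NMD. A splice junction more than 50 bases after the stop codon was present in none of the 7 factors, read from the transcript with the longest coding sequence, and in 0.790% of the 11771 tested genes examined. Isoforms with a shorter coding sequence were not read, so their junctions are not covered. The 3′ UTR of *Smg1* was 4223 bases, longer than in all but 4.08% of genes, and that of *Upf3a* was 64 bases, while the median gene had 932. Those of *Upf2* and *Upf3b* were 1261 and 834 bases. A long 3′ UTR is another feature that can expose an mRNA to NMD. Upstream ATGs, 1 each, were found in *Smg1*, *Smg5* and *Upf2*, and 49.0% of genes had at least 1. These features were therefore not held in common by *Smg1*, *Upf2* and *Upf3b*. *Smg1* was spread over 63 exons with a coding sequence of 10977 bases, against a median of 1422.

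Promoter windows are shown for the 3 factors that were higher in Del#3 in every pair, 250 bases up to the transcription start, 5′ to 3′ on the strand of the gene. They are RefSeq sequences of GRCm38.p6, a later build than mm9, and all 7 factors had 1 window. Capitals mark matches on either strand to the GC box GGGCGG, the CCAAT box, the YY1 core AGATGGCGG, TCGCGAGA and the NRF1 core GCATGCGC.
Smg1, chr7:118243638-118243887, minus strand: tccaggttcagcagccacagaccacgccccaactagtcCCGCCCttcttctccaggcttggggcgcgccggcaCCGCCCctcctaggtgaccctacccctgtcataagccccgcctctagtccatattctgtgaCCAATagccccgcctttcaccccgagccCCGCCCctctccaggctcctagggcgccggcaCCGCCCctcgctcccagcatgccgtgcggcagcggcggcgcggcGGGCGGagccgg
Upf2, chr2:5951219-5951468, plus strand: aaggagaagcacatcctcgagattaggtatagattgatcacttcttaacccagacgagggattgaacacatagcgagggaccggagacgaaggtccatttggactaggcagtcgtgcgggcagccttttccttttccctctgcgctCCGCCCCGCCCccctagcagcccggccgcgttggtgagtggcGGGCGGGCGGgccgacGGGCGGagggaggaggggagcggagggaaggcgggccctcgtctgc
Upf3b, chrX:37110323-37110572, minus strand: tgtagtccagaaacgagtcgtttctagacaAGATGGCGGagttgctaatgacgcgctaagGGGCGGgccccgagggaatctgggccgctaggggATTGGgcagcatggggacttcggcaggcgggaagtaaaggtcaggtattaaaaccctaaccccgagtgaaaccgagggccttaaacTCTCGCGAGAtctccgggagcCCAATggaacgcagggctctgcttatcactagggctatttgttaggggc
*Smg1* and *Upf2* each held 5 GC boxes, counting overlaps, and 4.09% of the 32851 windows held 4 or more. *Upf3b* held 1, as did *Upf3a*, while *Smg6* and *Upf1* held 2 and *Smg5* none, and 32.7% of windows held at least 1. *Upf3b* alone of the 7 held the YY1 core, found in 0.451% of windows. Its 2 TCGCGAGA matches are a single overlapping pair on opposite strands, *Smg5* held 2 as well, and 0.858% of windows held any. CCAAT was found once in *Smg1* and *Upf3a* and in 2 places in *Upf3b* (33.8% of windows), and *Upf1* held 2 overlapping matches to the NRF1 core (2.26%). No searched motif was present in all 3 printed windows other than the GC box. GC content of the windows was 70.8% for *Smg1*, 64% for *Upf2* and 56.8% for *Upf3b*, against a median of 52.4%. A match describes the letters only.

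The wider pathway was read from lists of other genes, 71 of 71 of which were listed and tested. None passed the threshold in limma without or with the block, where 2 and 3 of all 12891 genes did, and DESeq2 with the block, which called 0.156% of all genes, called none of those for which it gave an adjusted p. At such shares, no call among 71 genes says little about them. The lists are described by their direction and median log2 difference, Del#3 against EVX1-Δfs, beside 6497 higher and 6394 lower genes with a median of 0.0022 over all tested genes.

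Factors that recognise the stopped ribosome or join the SMG proteins were balanced, with 5 higher and 7 lower of 12 and a median of -0.06, or -0.03 over the 10 genes that the length and GC correction could cover. *Smg8* and *Smg9*, which bind SMG1, were at -0.07 and 0.24. *Dhx34* and *Nbas*, which also act in NMD, had 0.25 and -0.05, and *Pnrc2*, which links UPF1 to decapping, had 0.24. The release factors *Etf1* and *Gspt1* were at -0.15 and -0.17, the cap-binding genes *Ncbp1* and *Ncbp2* at -0.20 and -0.30, and the poly(A)-binding gene *Pabpc1* at 0.09. The AAA+ ATPase genes *Ruvbl1* and *Ruvbl2* were at -0.08 and 0.14. The list thus ran from -0.30 to 0.25.

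The exon junction complex had 4 higher and 5 lower of 9 tested genes, with a median of -0.03. After the length and GC correction, 6 were higher and 3 lower, and the median turned to 0.06. Its core genes *Eif4a3*, *Magoh*, *Magohb*, *Rbm8a* and *Casc3* were at 0.13, -0.42, -0.03, -0.20 and 0.15. The peripheral genes *Rnps1*, *Acin1* and *Sap18* were at -0.03, 0.13 and 0.11, and *Pym1*, which takes the complex off translated mRNAs and is listed as *Wibg*, was at -0.06.

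Decapping, deadenylation and 5′-to-3′ decay had 14 higher and 9 lower of 23 genes and a median of 0.07, or 0.017 after the length and GC correction. The pair medians were 0.03, -0.0088 and 0.39, and 16 of 23 were higher in pair 3. The highest were *Xrn1*, the main cytoplasmic 5′-to-3′ exonuclease, at 1.07 (standard error 0.39) and the deadenylase gene *Cnot6l* at 1.00 (standard error 0.35). *Xrn1* had 130.0, 52.7 and 82.7 normalized counts in EVX1-Δfs and 250.3, 138 and 155 in Del#3. Each Del#3 library was above its pair, by 0.94, 1.37 and 0.90 on the log2 scale, and the lowest Del#3 library was above the highest EVX1-Δfs library. The share of all tested genes separated in this way was not counted. In limma without the block, 2 of the 23 genes had an unadjusted p under 0.05, against 1.03% of all tested genes. With the block, 3 did, against 4.62%. The unadjusted p of *Xrn1* was 0.0199 and that of *Cnot6l* 0.0171 in limma, with an adjusted p of 1.00 for both. After the length and GC correction, the difference of *Cnot6l*, with 10.3 kb of exon at 38.6% GC, was 0.48, and that of *Xrn1* was 0.97. The lowest were the antiproliferative genes *Tob1* and *Btg2*, at -0.54 and -0.33.

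The kinase family of *Smg1* had the highest median of the lists. All 6 PIKK genes were higher in Del#3 by their means, with a median of 0.69 with *Smg1* and 0.53 without it. Without *Smg1*, the medians of pairs 1 to 3 were 0.84, 0.86 and -0.10, and the median after the length and GC correction was 0.30. The DNA damage kinase genes *Atr* and *Atm* were at 1.15 and 0.85, *Prkdc* was at 0.53, and *Trrap* and *Mtor* were at 0.16 and 0.13. *Atr* had 105, 51.6 and 203 normalized counts in EVX1-Δfs and 436, 232 and 122 in Del#3. *Atr*, *Atm* and *Prkdc* changed sign between pairs, with log2 differences of 2.04, 2.15 and -0.73 for *Atr*, 1.72, 1.56 and -0.72 for *Atm* and 0.84, 0.86 and -0.10 for *Prkdc*. *Trrap* was lower in Del#3 in pair 2, at -0.75. The kinases were long and mostly of low GC content, with medians of 11.5 kb of exon and 44.1% GC over the 6. Genes for the assembly of PIKK proteins had 5 higher and 4 lower of 9, or 7 higher and 1 lower of 8 after that correction, and a median of 0.09 in both, from *Rpap3* (-0.15) and *Ruvbl1* (-0.08) to *Ruvbl2* (0.14) and *Hsp90aa1* (0.68).

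Of the genes known as NMD substrates, 3 were higher and 12 lower in Del#3 by their means, with a median of -0.13. This did not hold in pair 3, where 8 of 15 were higher, and the pair medians were -0.23, -0.14 and 0.10. After the length and GC correction, 6 were higher and 9 lower, with a median of -0.07. None passed the threshold in limma, and 0 had an unadjusted p under 0.05 without or with the block, against 1.03% and 4.62% of all tested genes. The lowest were *Gas5*, a non-coding host of small nucleolar RNAs, at -0.56 and *Snhg15*, another such host, listed as *Gm11974*, at -0.29, and the highest were *Smad7* and *Trib3* at 0.22 and 0.16. *Gas5* had 397, 287 and 210.3 normalized counts in EVX1-Δfs and 218, 123 and 278 in Del#3, so it was lower in pairs 1 and 2 and higher in pair 3. In all 3 pairs, 3 of the 15 were lower and 0 were higher, beside 1417 and 1557 of all 12891 genes. With only 15 genes, nothing is read from these counts. mRNA levels do not show NMD activity, which was not measured here.

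**Figure D5:**
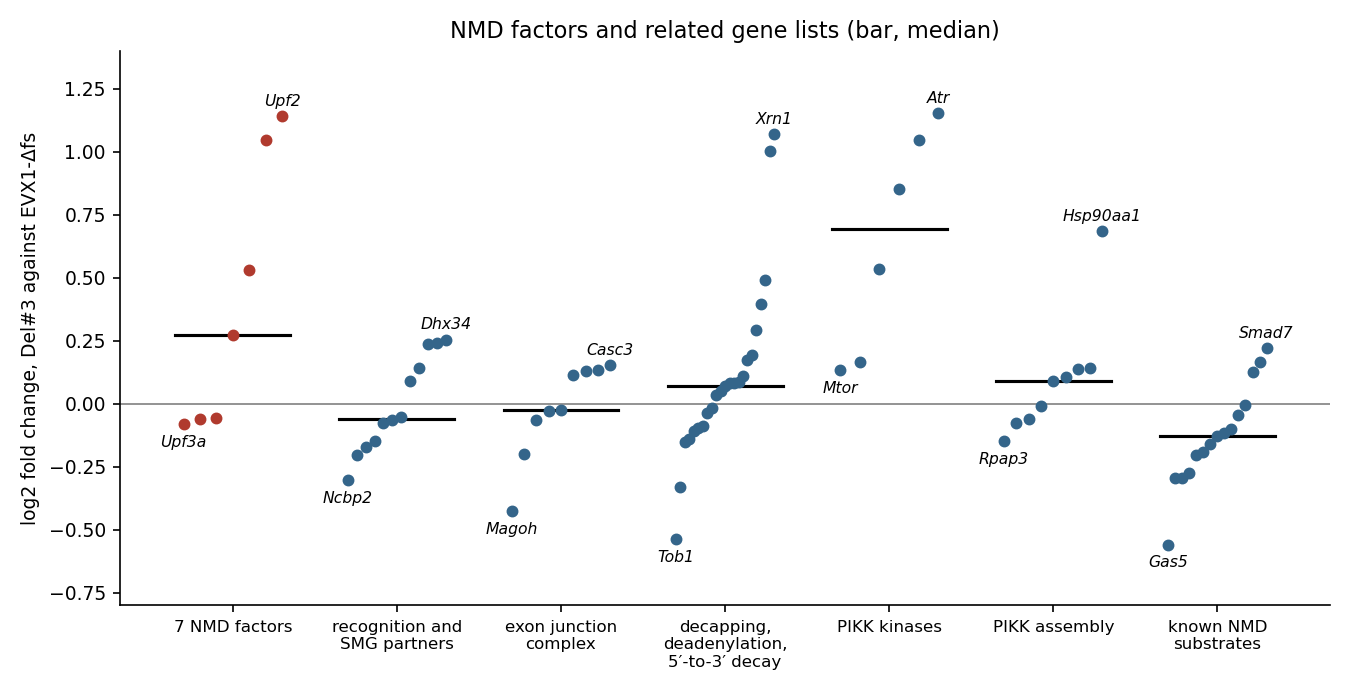
Log2 fold change of Del#3 against EVX1-Δfs in limma (vertical axis) for the 7 NMD factors and 6 related gene lists, 1 point per gene with the lowest and highest named and a bar at the median. The PIKK kinases have the highest median of the 6 lists, 0.69 with *Smg1*, which was chosen for its difference, and 0.53 without it, and the known NMD substrates the lowest, -0.13, and *Smg1* is a point of both the first and the PIKK columns.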

How the data were processed

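mRNA-seq of D4 EBs was analysed in 3 EVX1-Δfs and 3 Del#3 libraries. Per the paper's methods, reads from the Ion Proton were aligned to mm9 (TopHat2, then TMAP), assigned to genes by HTSeq with default settings, which use strand, and tested with DESeq2. The signal values deposited by the authors are these counts divided by a size factor: in each library 100% of values were whole multiples of 1 step (tolerance 0.01), so that reads could be recovered. The notes name no versions.

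The main test was limma 3.58.1 (R 4.3.3) with eBayes trend, applied without a block to log2(normalized count + 1), over genes passing filterByExpr of edgeR 4.0.16 on recovered reads (minimum count 10). Benjamini-Hochberg adjustment covered all tested genes, with a threshold of 0.05. Permutation tests were exact and two-sided. Correlations between same-numbered libraries of their deviations from the line means were 0.74, 0.32 and -0.05 in replicates 1 to 3, and the pairing comes from the study's description of its differentiations.

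Alternatives were edgeR's quasi-likelihood test and DESeq2 1.42.0 on recovered reads, each without and with the replicate block, a loess correction (span 0.3) for exon length and GC content, other scalings, pseudocounts of 0.1 and 5, other filters and leaving out each library. The main fit and its alternatives, other than leaving out a library, were also run on simulated data in which 200 genes were altered. These data held no replicate effect, and the tests among days were not simulated. Gene models were those of GENCODE for NCBIM37, matched by name for 14262 of 15266 listed genes, and 4 list genes were found under older symbols given by RefSeq. *Upf1* and *Smg6* share 1.43% and 2.87% of their exon bases with genes on the opposite strand.

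Genes named were the 7 factors, *Evx1* as a check of the labels, all PIKK and exon junction genes, all but 1 of the recognition genes, the 2 lowest and 2 highest of longer lists, and the 5 genes most like *Smg1*. *Peg3*, *Prr14l*, *Ash1l* and *Pds5a* were named for their place at the threshold. The remaining recognition gene is not reported here and was left out of all counts. Members and lists were chosen with earlier results of these data known. With 3 libraries per line, spread between libraries, not counting error, set the precision.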

Additional observations from a re-analysis of the deposited data

How the results depend on the processing

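Over 20 alternatives, 6 of which each left out 1 library, *Smg1*, *Upf2*, *Upf3b* and *Upf1* kept a positive log2 difference. The number of NMD factors called rose from 0 to 1, *Smg1*, in DESeq2 with the replicate block and was 0 in the other 19, among them the replicate block in limma and edgeR. The number over all genes rose from 2 to 15 in DESeq2 with the replicate block and to 11 when a length and GC correction was added, and was 2 without any 1 library. No other gene of the lists was called. Among days, the count of NMD factors fell from 1 to 0 after the length and GC correction. The cause of these changes was not tested. When 1 library was left out, log2 differences ranged from 0.61 to 1.46 for *Smg1*, with 0.63 without EVX1-Δfs replicate 2 and 0.61 without Del#3 replicate 1. The ranges were 0.62 to 1.58 for *Upf2*, 0.16 to 0.75 for *Upf3b* and 0.083 to 0.51 for *Upf1*. They crossed 0 for *Smg5* (-0.15 to 0.011), *Smg6* (-0.26 to 0.098) and *Upf3a* (-0.21 to 0.066). *Smg6* turned without EVX1-Δfs replicate 1, Del#3 replicate 2 or Del#3 replicate 3, *Smg5* without Del#3 replicate 1 and *Upf3a* without EVX1-Δfs replicate 3. The comparison among days and the corrected list medians were added after the data were seen.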
